A study of Bos taurus with 72 samples.

Results

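The long-term change in the blood transcriptome over time on feed was followed in 18 male beef cattle. Each animal gave 1 whole-blood library at entry to the feedlot and 1 at close-out, the last of the labelled stages, so 36 of the 72 libraries of the series entered the comparison. The animals are those whose library title ends in a number of 98 or less, and the 2 libraries of an animal were paired by that number. The whole series holds 24 animals, each sampled at 3 stages that the labels call entry, pulled and close-out, and its title names bovine respiratory disease. The 18 pulled libraries of the same animals were used for the level between the 2 ends, and the 12 entry and close-out libraries of the other 6 animals for comparison. All groups share tissue, sex and collection in RNA-stabilising blood tubes. Within the 18 animals the labelled difference is the stage, and the other 6 differ from them in title number. The labels give no breed, age, diagnosis, treatment, date or number of days between samplings. Per the labels' protocols, only animals whose RNA integrity passed a minimum at each stage were sequenced. Stage, age, time on feed, season, date of processing and any illness or treatment between the samplings cannot be told apart.

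Whole blood is a mixture in which neutrophils, lymphocytes and monocytes carry most of the messenger RNA, with platelets and immature red cells adding their own transcripts. The proportions of these cells shift with age, stress, infection and diet. In a bulk sample, fewer cells of a type and less RNA per cell cannot be told apart. The deposited table names genes by Ensembl identifier only, and 0 of its 24616 identifiers matched the gene table at hand. The genes below are therefore described by identifier, level and size of change. The markers of blood cell types were not checked, and no sequence is shown for the same reason.

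The 18 animals were set apart with their entry values known. On the first principal component of all 72 libraries, which held 40.5% of the variance of log2 read counts scaled to library size (CPM, counts per megaread), the entry libraries of the 18 scored from -92.4 to 0.903. Those of the other 6 animals scored from 34.6 to 101. Animal 24, whose title number of 98 is the last inside the limit, scored -39.4 at entry, and animal 2, the first outside it, scored 101. At close-out these 2 animals scored -14.4 and -28.7. The close-out libraries of the 18 had a mean score of 8.45 and those of the 6 one of -1.20, and their ranges overlapped. Because the entry libraries chose the animals, the counts and adjusted p-values for close-out against entry describe these 18 animals and give no independent support for a change in cattle at large.

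The libraries of both stages had like depth. Totals lay between 9.86 and 24.3 megareads at entry and between 8.24 and 29.1 megareads at close-out, and were higher at close-out in 8 of 18 animals. The number of genes with a count was 15579 ± 335 at entry and 15346 ± 279 at close-out (SD, n = 18), higher at close-out in 5 animals. The scaling factor of the trimmed mean of M values (TMM) was 1.12 ± 0.0789 at entry and 1.02 ± 0.154 at close-out, higher at close-out in 4 animals. The part of these library measures in the results was not tested, apart from the scalings given beside them. A doubt about labels touches animals 9, 11 and 12. The entry library of animal 11 and the library labelled pulled of animal 9 gave a chi-square of their counts of 1.46 per degree of freedom. Sampling noise alone would give about 1, and the next lowest of 2556 pairs of libraries was 29.1. Within the 36 libraries the lowest value was 30.2. Each pulled library was also set against the mean of entry and close-out of every animal, over the 100 genes whose differences between animals were most alike at those 2 stages. Of the pulled libraries, 22 correlated with their own animal at 0.797 or more and with any other animal at 0.581 or less, across genes. The one labelled animal 9 correlated with animal 9 at -0.0849 and with animal 11 at 0.943. The mean of animal 11 holds the entry library that nearly equalled this pulled library, so the value of 0.943 is no separate check. The pulled library labelled animal 12 correlated with animal 12 at -0.00365 and at most at 0.253 with another animal. For animal 12 these values do not show whether the pulled library or the entry and close-out libraries are mislabelled. Both doubted pulled libraries stay out of the comparisons below, and counts without animals 9, 11 and 12 are given.

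Close-out blood differed from entry blood in most of the genes that could be tested. Of 12498 genes with enough counts, 4086 (32.7%) were higher and 4410 (35.3%) lower at close-out, at a Benjamini-Hochberg adjusted p under 0.05 in edgeR's quasi-likelihood test with the animal as a block. Most of the changes were small, and the falls were larger than the rises. Higher genes had a median log2 fold change of 0.43 and lower genes one of -0.64, against -0.01 over all tested genes. A change of more than 2-fold was seen in 4.21% of the higher genes (172 genes) and in 21.3% of the lower genes (938 genes). Against a 1.5-fold change as the null, 215 genes were higher and 947 lower (edgeR's test against a threshold, same adjusted p). Without animals 9, 11 and 12 the counts were 3818 and 4407. Where library totals replaced the TMM factors, 2348 genes were higher and 5457 lower, so the higher genes went from 48.1% to 30.1% of all calls. That scaling moved the median change over all genes to -0.18 (log2), so a change here is relative to the scaling used. The 18 libraries per stage come from separate animals. With the animal as a block, the spread behind these tests is that of the change from animal to animal.

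Genes at high and at low level mostly differed in direction. Among the 1184 genes with a mean log2 CPM from 7 to 9, 62.5% passed as higher and 11.3% as lower (edgeR, adjusted p under 0.05). The next class down, the 3055 genes from 5 to 7, had 48.6% higher and 23.3% lower, an order that turned with library totals in place of TMM (27.9% and 32.9%). In the classes below it, lower genes were the more frequent. Of the 3303 genes from 3 to 5, 26% were higher and 44.6% lower, and of the 2735 genes from 1 to 3, 18.7% were higher and 49.7% lower. The median log2 fold change of a class went from -0.28 (1 to 3) through -0.13 and 0.16 to 0.29 (7 to 9), and was 0.27 in the 276 genes over 9. The median standard error was 0.14 in the class from 1 to 3 and 0.09 in the class from 7 to 9, against a median absolute log2 fold change of 0.47 and 0.35.

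With library totals in place of TMM, the class from 7 to 9 still had more genes higher (41.3%) than lower (18.2%), and the class from 1 to 3 more lower (57.5%) than higher (10.4%). In the class from 5 to 7 the median log2 fold change was then -0.02. The pattern was shared by most of the animals. With TMM, the median change of the genes from 1 to 3 was below 0 in 16 of the 18. That of the genes from 7 to 9 was above 0 in 16. With library totals these counts were 15 and 14. Animals 1 and 9 went the other way under TMM. Their medians were then 0.19 and 0.12 (log2) in the lower class and -0.31 and -0.07 in the higher one.

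**Figure D1:**
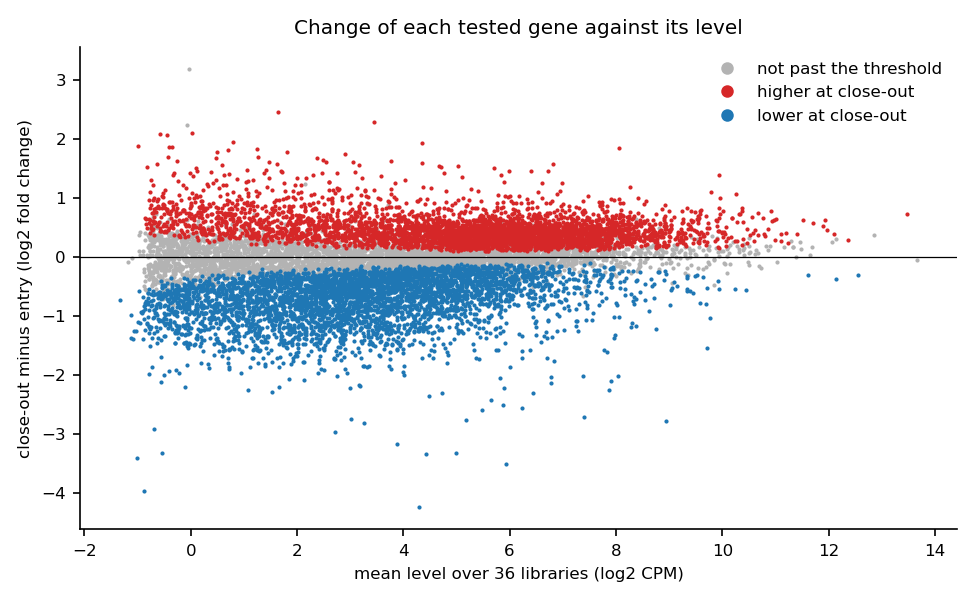
Log2 fold change from entry to close-out (y axis) against the mean level over the 36 libraries in log2 CPM (x axis), 1 point per tested gene, with 4086 genes higher (red), 4410 lower (blue) and the rest grey. Falls reach further from 0 than rises, and red points prevail at the right.

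**Figure D2:**
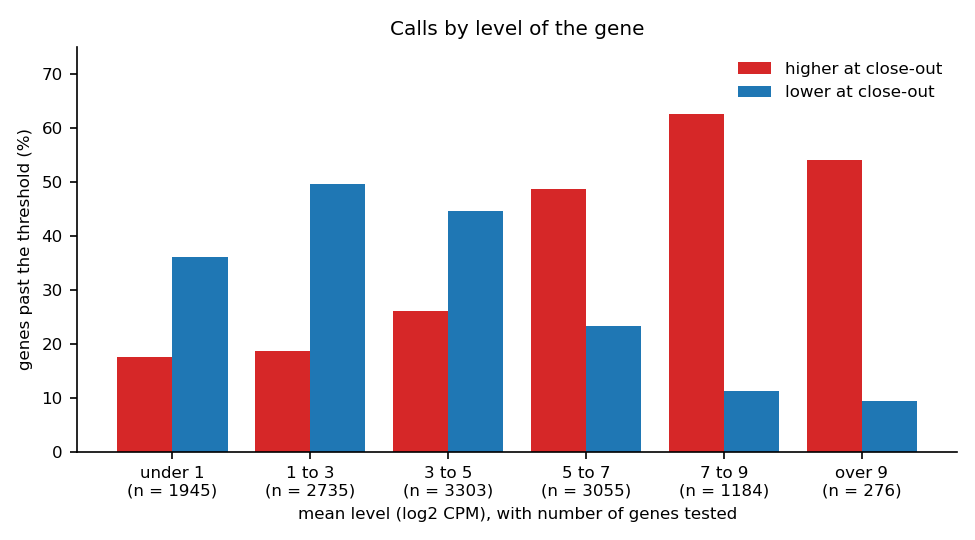
Share of tested genes past the threshold (y axis, %) in 6 classes of mean level in log2 CPM (x axis), higher at close-out in red and lower in blue. Lower genes prevail up to a level of 5 (44.6% against 26% in the class from 3 to 5) and higher genes above it (48.6% against 23.3% in the class from 5 to 7, which turned to 27.9% against 32.9% with library totals in place of TMM).

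The changed genes were also described by the share they held of each library's own reads. The 4086 higher genes took 46.8% ± 3.55 of the reads of the tested genes at entry (SD, n = 18) and 57.0% ± 4.56 at close-out, and more at close-out in 18 of 18 animals. This share is a sum over genes and does not show that most of them rose in each animal. In animal 1, only 25% of the genes called higher in a test of the other 17 animals rose. The 4410 lower genes took 20.1% ± 3.39 at entry and 12.2% ± 4.10 at close-out. In 1 of 18 animals their share was larger at close-out. At the pulled stage the shares in the 16 animals with undoubted pulled libraries were 57.0% ± 2.99 and 12.7% ± 2.97 (SD, n = 16). Both lay near the close-out means of the 18 animals (57.0% and 12.2%) and further from those at entry (46.8% and 20.1%). These genes were chosen from the same entry and close-out libraries, so the shares are a description and no test of the shift.

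Single genes are described by the 4 that the rule for named genes picked. It took genes past the threshold that had a mean level of 1 log2 CPM or more and moved 1 way in 17 or 18 of the animals, which 786 higher and 948 lower genes met. The 2 with the largest and the 2 with the smallest log2 fold change were taken. All 4 moved in the same direction in all 18 animals. This was so in 189 higher genes (1.51% of those tested) and 315 lower genes (2.52%).

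ENSBTAG00000016061 had the largest fall of any tested gene. Its level at entry ran from 3.85 (animal 18) through a median of 6.69 to 8.07 log2 CPM (animal 14). At close-out it ran from 0.72 (animal 13) through a median of 1.66 to 5.36 (animal 16). Animal 16 was among the highest at entry as well, and its close-out value lay within the range of the entry values, as did that of animal 20 at 4.08, so the stages overlapped. In CPM the median went from 103 to 3.05. The log2 fold change was -4.23 (SE 0.36, edgeR adjusted p = 7.44e-08), an 18.8-fold fall. At the pulled stage the median of the 16 animals was 4.81, with a range from 2.09 to 8.26. That range holds all entry values and the upper part of the close-out range. The close-out median of 1.66 lies below it. In log2 units, pulled minus entry came to -1.38 (SE 0.46, edgeR adjusted p = 0.00761), and 11 of 16 animals were lower. Close-out minus pulled came to -3.01 (SE 0.48, edgeR adjusted p = 1.53e-05), and 15 of 16 animals were lower. Over all genes, that comparison had 2007 higher (15.8%) and 2200 lower genes (17.3%) among 12703 tested (edgeR, adjusted p under 0.05). These 2 comparisons share libraries with the main one and are given beside it.

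ENSBTAG00000008471 fell from a higher level. At entry it ran from 5.51 (animal 12) through a median of 7.88 to 9.74 log2 CPM (animal 14), and at close-out from 2.76 (animal 8) through 4.00 to 6.91 (animal 16). The highest and the lowest values again overlapped in part, through animal 16 at close-out. Its median CPM was 236 at entry and 15.8 at close-out. The log2 fold change was -3.50 (SE 0.33, edgeR adjusted p = 2.47e-07), an 11.3-fold fall. The median of the 16 pulled libraries was 6.45, with animal 17 lowest at 3.23 and animal 19 highest at 9.66. Close-out minus pulled was -2.42 (SE 0.41, edgeR adjusted p = 3.82e-05) with lower values in 15 of 16 animals, and pulled minus entry was -1.24 (SE 0.41, edgeR adjusted p = 0.00721), lower in 13.

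ENSBTAG00000046188 had the largest rise among the genes that met the rule. Its entry level was low, from -1.76 (animal 13, with 2 reads) through a median of 0.59 to 2.15 log2 CPM (animal 19). At close-out it ran from 2.06 (animal 9) through 2.86 to 3.72 (animal 13). The stages barely overlapped, since only the highest entry value, that of animal 19, lay above the lowest close-out values. Reads per library went from a median of 26 to one of 141.5. The log2 fold change was 2.46 (SE 0.26, edgeR adjusted p = 7.43e-07), a 5.50-fold rise. At the pulled stage the median of 16 animals was 0.81, near that of entry. Pulled minus entry was 0.49 (SE 0.38, edgeR adjusted p = 0.242), higher in 9 of 16 animals, which did not pass. Close-out minus pulled was 2.03 (SE 0.37, edgeR adjusted p = 8.72e-05), higher in 15 of 16 animals, and animal 22 had the highest pulled value at 4.01.

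ENSBTAG00000037578 had a wide spread at entry. It ran from -2.69 (animal 16, with 1 read) through a median of 2.40 to 5.70 log2 CPM (animal 19), and at close-out from 3.23 (animal 16) through 4.55 to 6.48 (animal 19). The same 2 animals were lowest and highest at entry and at close-out, but not at the pulled stage. There the median of the 16 animals was 2.77, with animal 19 lowest at -0.82 and animal 17 highest at 4.96. Animal 16 was at 4.06 at that stage. The entry and close-out ranges overlapped between 3.23 and 5.70. The log2 fold change was 2.29 (SE 0.26, edgeR adjusted p = 1.72e-06), a 4.90-fold rise. Pulled minus entry was 0.59 (SE 0.46, edgeR adjusted p = 0.253), higher in 10 of 16 animals, which did not pass, and close-out minus pulled was 1.56 (SE 0.45, edgeR adjusted p = 0.0075), higher in 14.

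**Figure D3:**
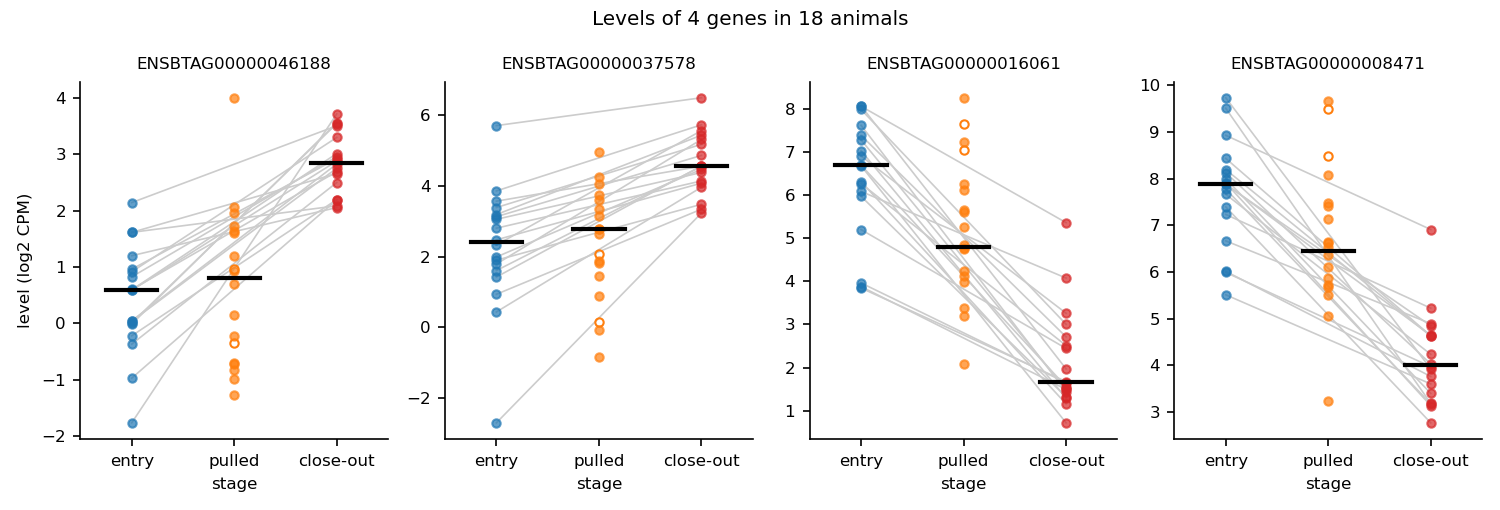
Level in log2 CPM (y axis) of the 4 genes at entry, pulled and close-out (x axis), 1 point per library of the 18 animals, with grey lines joining entry and close-out of an animal and black bars at the medians. Open points are the doubted pulled libraries of animals 9 and 12, which the pulled median leaves out. All 18 lines rise in the first 2 panels and fall in the other 2.

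The animals did not follow the common change to the same degree. Across the 12498 genes, the change of an animal from entry to close-out correlated with the mean change of the other 17 at a median of 0.753, from -0.215 in animal 1 to 0.887 in animal 14. These correlations are across genes within a pair of libraries, and all animals share the scaling and the choice on entry values. Animal 9 was at 0.152, animal 16 at 0.404 and animal 24 at 0.529, and the other 14 were at 0.585 or more. The size of the change differed too. The slope of an animal's change on that of the others had a median of 1.04 and was 1.87 in animal 20, the highest.

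The direction of change was also described over genes called without the animal in question. When the test was run on the other 17 animals, a median of 89.2% of the genes called higher and of 92.3% of the genes called lower moved the same way in the animal left out. In animal 1 only 25% and 30% did so, and in animal 9 it was 55.2% and 42.3%. In animal 16 the shares were 69.1% and 75.8%. Leaving out animal 1 gave 4295 higher and 4606 lower genes, the most of any animal left out.

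**Figure D4:**
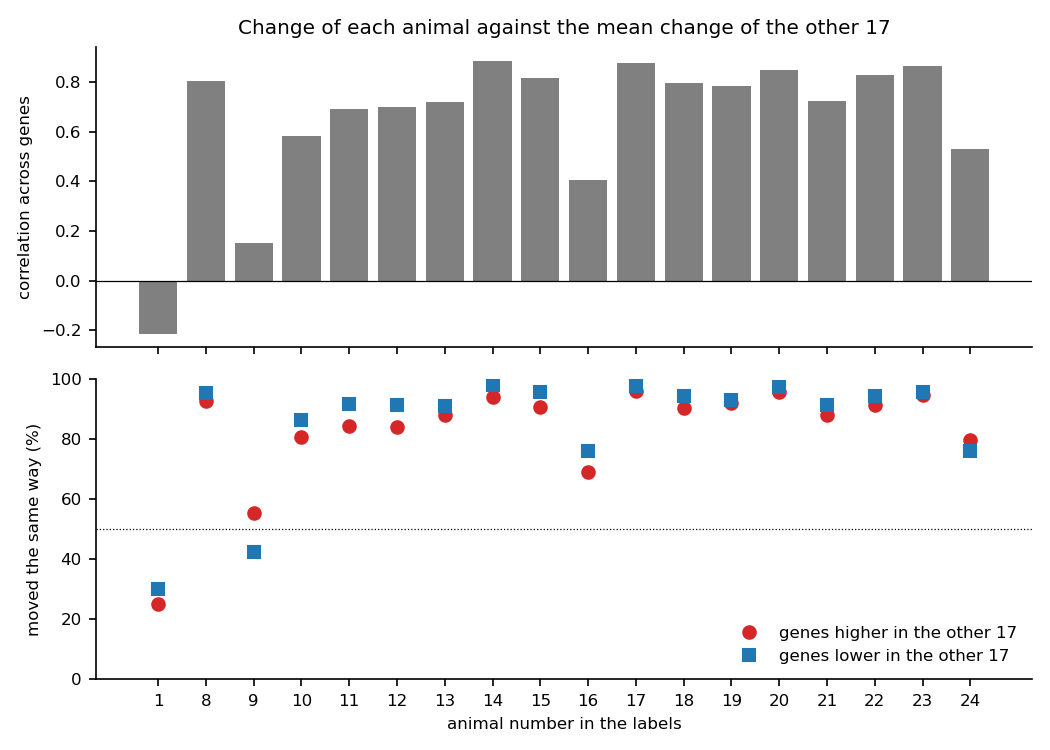
For each of the 18 animals (x axis), the correlation across genes of its change with the mean change of the other 17 (upper panel), and the share of genes called in the other 17 that moved the same way in it (lower panel, %, higher genes as red circles and lower genes as blue squares, dotted line at 50%). Animal 1 lies below 0 at -0.215, animal 9 at 0.152, and the other 16 at 0.404 or more.

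The main axis of variation among the 36 libraries followed the stages in part. The first principal component of these libraries held 46.6% of the variance. Entry libraries scored from -69.0 to 15.6 with a mean of -31.1, and close-out libraries from -50.2 to 90.8 with a mean of 31.1. Animal 1 went from -27.4 to -50.2 and animal 9 from -11.5 to -13.6, while the other 16 animals scored higher at close-out than at entry. Animals 16 and 21, among the lowest at entry at -62.9 and -67.8, stayed below 0 at close-out at -20.3 and -22.3.

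**Figure D5:**
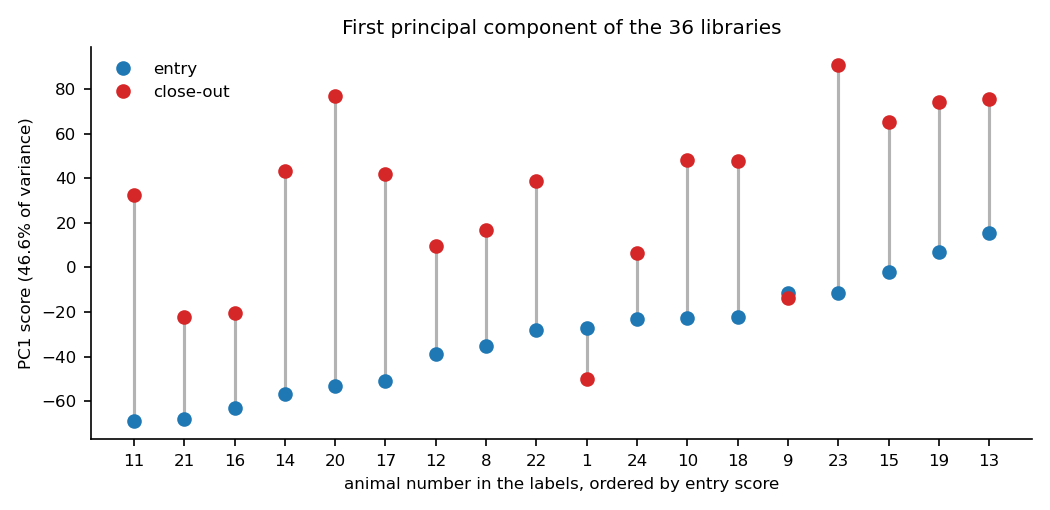
Score on the first principal component of the 36 libraries (y axis, 46.6% of the variance) for each animal (x axis, ordered by entry score), entry in blue, close-out in red, joined by a grey line. The score is higher at close-out in 16 animals, and lower in animals 1 and 9.

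The spread between animals was larger at close-out than at entry in most genes. The median SD of log2 CPM between the 18 animals was 0.35 at entry and 0.42 at close-out. The SD was larger at close-out in 71.1% of the tested genes (70.2% with library totals in place of TMM). Among the genes lower at close-out this share was 82.4%, and among the higher genes it was 70.9%. At entry the SD was larger in 41.3% of genes not past the threshold, 17.6% of lower and 29.1% of higher genes. Lower genes have fewer reads at close-out, and the part of read number in their spread was not tested. The entry libraries were the ones that chose the animals, and the part of that choice in the smaller spread at entry was not tested.

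The other 6 animals of the series are set beside the 18 here. Among 12023 genes tested there, 2782 (23.1%) passed as higher and 2530 (21.0%) as lower at close-out (edgeR, adjusted p under 0.05). The change of each of the 6 correlated with the mean change of the 18 at -0.590 to -0.0603. In the level classes fixed on the 18, the median change of genes from 1 to 3 was above 0 in all 6 animals, with a median over animals of 0.43 (log2), and that of genes from 7 to 9 was below 0 in all 6, with a median of -0.38. The entry libraries of the 6 had TMM factors of 0.815 ± 0.102 (SD, n = 6) and those at close-out 1.11 ± 0.0748, the opposite order to the 18. The difference between the sets involves the entry values that divided them, so it is described and not tested.

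The levels of the 4 genes overlapped between stages in the 6 animals. ENSBTAG00000016061 was at 3.05 ± 2.53 log2 CPM at entry and 1.84 ± 0.72 at close-out (SD, n = 6), and was lower at close-out in 3 of the 6 animals, which did not pass (edgeR adjusted p = 0.213). Its entry values there ran from 0.56 (animal 3) to 7.51 (animal 5), from below the lowest entry value of the 18 to within their range. ENSBTAG00000008471 was at 4.54 ± 2.04 at entry and 3.68 ± 0.62 at close-out, lower in 3 of 6, and did not pass either (edgeR adjusted p = 0.382). ENSBTAG00000046188 was at 2.06 ± 1.48 and 3.23 ± 0.75, higher in 5 of 6, and passed with a 2.14-fold rise (edgeR adjusted p = 0.0319). ENSBTAG00000037578 was at 3.34 ± 1.55 and 4.25 ± 0.36, higher in 4 of 6, and did not pass (edgeR adjusted p = 0.148). For both genes that were lower in the 18, close-out levels in the 6 lay within the close-out range of the 18, and the entry means lay below the lowest entry value of the 18.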

How the data were processed

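Whole-blood RNA of 24 cattle at 3 stages gave 72 libraries. The authors deposited raw read counts for each Ensembl gene, with no normalization. TopHat2, HTSeq and build UMD3.1 were used, per the submitters' processing notes; their versions, the annotation and the strand setting are not given in these sources. Columns matched to no sample numbered 0. The members, the gene lists and the rules were chosen with earlier results of these data known.

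Counts of the 36 libraries were filtered, scaled by TMM and fitted with edgeR 4.0.16 in R 4.3.3 (quasi-likelihood, animal plus stage, adjusted p under 0.05). The standard error of a log2 fold change is its size over the root of F. Pulled comparisons came from a fit of the 3 stages without the pulled libraries of animals 9 and 12. Levels are log2 CPM with a prior count of 2 and TMM over all 72 libraries. The pairing comes from the animal in the labels. Deviations of entry and close-out of an animal correlated at a median of 0.408, from -0.0858 to 0.737, above 0.1 in 13 of 18 pairs. Between different animals the median was -0.0118 and the highest value 0.552. The entry library was closest to its own close-out library in 10 of 18 animals. The chi-square of library pairs was taken over genes averaging 100 reads or more. The match of pulled libraries to animals used log2 CPM centred per stage, and was chosen after the data were seen. The edgeR test was tested on simulated data. Few genes were changed there, unlike here, so that run does not cover a change in most genes. The named genes are the 2 per direction with the largest change among genes past the threshold with a mean level of 1 log2 CPM or more and 17 or 18 animals in 1 direction, without the condition that a gene has a symbol. The 50 gene lists fixed by symbol, the share of haemoglobin genes and a check of cell type markers were not computed, since 0 identifiers matched.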

Additional observations from a re-analysis of the deposited data

How the results depend on the processing

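The counts of 4086 higher and 4410 lower genes were recomputed without the animal block, with RLE scaling, library totals, DESeq2 1.42.0 and limma-voom (limma 3.58.1), without a filter, with at least 1 CPM in 18 libraries, with the pulled libraries or all 72 libraries in the fit, without animals 9, 11 and 12, without each animal, against a 1.5-fold change and at an adjusted p of 0.01. They left 1.5 times their value in 2 of these. With library totals 2348 genes were higher, and against a 1.5-fold change 215 were higher and 947 lower. The counts against a 1.5-fold change follow from the wider null. Scaling to totals moved the median log2 fold change over all genes from -0.008 to -0.184. TMM factors were higher at close-out in 4 of 18 animals, and which scaling is nearer to the blood was not tested. With no replicate block, so without the pairing by animal, the counts were 3787 and 4144. Without each animal in turn they ran from 3712 to 4295 higher and from 4276 to 4606 lower. No gene called in 1 direction was called in the other under any of these. The 4 named genes kept their direction and passed under all 30 alternatives, and the largest adjusted p was 0.000453 (ENSBTAG00000037578, edgeR with no replicate block). Alternatives for the gene lists were not run, since the lists could not be matched. Precision is limited by 18 animals and, for ENSBTAG00000046188 and ENSBTAG00000037578, by 2 and 1 reads in single entry libraries.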
